A study of Mus musculus with 10 samples.

Results

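The genes described here build and cross-link the elastic fibre: *Eln*, *Fbn1*, *Mfap4*, *Fbln1*, *Fbln5*, *Efemp1*, *Efemp2*, *Lox*, *Loxl1* and *Loxl2*. They were found by their gene symbol in the deposited table of normalized counts, where these 10 were all present among 25233 genes with a symbol. Expression was measured by bulk RNA-seq in 5 libraries of hypertrophied hepatic stellate cells (hypHSCs) and 5 of quiescent hepatic stellate cells (qHSCs), all sorted from livers of male C57BL/6J mice. The hypHSCs came from mice fed the CDAHFD, a choline-deficient, low-methionine, high-fat diet that gives steatosis and fibrosis. hypHSC 1 and 2 were taken after 13 weeks of diet at 19 weeks of age, and hypHSC 3, 4 and 5 after 12 weeks at 18 weeks of age. The qHSCs came from mice on standard diet, aged 36 weeks for qHSC 1, 2 and 5 and 34 weeks for qHSC 3 and 4. The 2 kinds of cell were sorted on their own retinoid fluorescence, green for hypHSCs and blue for qHSCs, and the hypHSC livers were digested with more enzyme and for longer. Antibiotics were added to the buffers for the hypHSC livers only. Diet, age, digestion, antibiotics and sorting gate therefore changed together between the groups and cannot be told apart. The paper had more hypHSC preparations than mice and sequenced those of highest RNA integrity. The labels do not tie a library to a mouse, so libraries could share a liver, and a p-value here measures the spread between preparations.

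Elastic fibres let a tissue stretch and recoil. They have an amorphous core of elastin, deposited on a scaffold of fibrillin microfibrils. Fibulins and the related EFEMP proteins bind tropoelastin, the soluble precursor of elastin, and bring it to the microfibril and to the enzymes that cross-link it. Those enzymes, the lysyl oxidases, are copper-dependent and oxidise lysines of both elastin and collagen. In the normal liver elastic fibres lie mainly in vessel walls and portal tracts, and in fibrosis they build up in the scar, where late, cross-linked septa are known to be slow to resolve. Hepatic stellate cells store retinoids in the space of Disse and are a main source of scar matrix.

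Of the fibulin-type genes among the 10, *Efemp1*, *Fbln5* and *Efemp2* were lower in hypHSCs, and the bases just upstream of their first annotated exon are shown to let a reader compare the starts of genes that moved together. They are RefSeq promoter sequences from a table of build GRCm38.p6, and each was placed on GRCm39, the build of the deposited table, by its 1 exact match. Bases are printed in the direction of transcription. Capitals mark GGGCGG, the GC box, or TGANTCA, a looser form of the AP-1 motif with any middle base, on either strand. Of the 10 genes, 5 had an entry in that table (*Fbn1*, *Efemp1*, *Fbln5*, *Fbln1* and *Efemp2*). *Efemp1* is shown for chr11:28802955-28803149 on the plus strand (195 bases), *Fbln5* for chr12:101785430-101785628 on the minus strand (199 bases) and *Efemp2* for chr19:5523724-5523973 on the plus strand (250 bases).
Efemp1: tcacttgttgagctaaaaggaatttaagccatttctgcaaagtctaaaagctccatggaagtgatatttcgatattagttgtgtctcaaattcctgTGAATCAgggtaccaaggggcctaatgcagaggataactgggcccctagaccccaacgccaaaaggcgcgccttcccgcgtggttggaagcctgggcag
Fbln5: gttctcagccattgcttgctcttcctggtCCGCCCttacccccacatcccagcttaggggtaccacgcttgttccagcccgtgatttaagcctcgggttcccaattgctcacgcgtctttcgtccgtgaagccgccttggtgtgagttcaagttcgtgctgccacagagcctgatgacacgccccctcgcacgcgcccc
Efemp2: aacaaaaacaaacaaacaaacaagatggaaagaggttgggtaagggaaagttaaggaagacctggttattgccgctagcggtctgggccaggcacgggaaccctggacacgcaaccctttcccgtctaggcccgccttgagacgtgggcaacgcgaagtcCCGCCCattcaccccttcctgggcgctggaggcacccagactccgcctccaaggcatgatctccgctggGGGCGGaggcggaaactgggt

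In windows of 250 bases before the start, searched on both strands, GGGCGG was found in 7 of 9 windows of the 5 genes and in 32.7% of 32851 RefSeq promoters. TGANTCA occurred in 1 of the 9 windows, that of *Efemp1*, and in 6.75% of all promoters. The *Efemp1* match reads TGAATCA, with A where the stricter AP-1 motif has C or G. The CCAAT box was met once, in *Fbln5*, against 33.8% of all promoters, while TATAAA (12.4% of all) and CATTCC, the TEAD motif (12.6% of all), were not found in the 9 windows. The GC content of the windows ran from 46.4% (*Fbln1*) to 78.8% (*Efemp2*), against a median of 52.4% over all promoters. Some windows reach into annotated exons, and the GGGCGG of the *Efemp1* window is not within the bases printed above. The windows of 1 gene overlap or lie close together, so they are not separate cases, and a match is only a run of letters.

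Each hypHSC library held 30534719 to 43283589 reads on genes with a symbol, and each qHSC library 35640104 to 47317028. Values below are normalized counts, that is reads divided by 1 DESeq2 size factor per library, in which the detection floor of 3 reads lies at 2.25 to 4.54. This floor covers counting error only, since amplified reads are not independent molecules. Mitochondrial rows took 2.21% to 12.8% of the reads in hypHSCs, most in hypHSC 1, and 1.25% to 1.61% in qHSCs. Defining stellate cell genes were present in both groups, but the 10 quiescent markers summed to 8087 to 21890 in hypHSCs against 811539 to 1473170 in qHSCs. The 12 macrophage markers summed to 1079860 to 1531440 in hypHSCs and to 5099 to 119249 in qHSCs, highest in qHSC 4 and next in qHSC 1 (53177). How much these other cells or states contributed to the values below was not tested, and in bulk libraries fewer cells of a type and less RNA per cell cannot be told apart.

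Of the 10 genes, 9 had at least 10 normalized counts in 5 libraries and were tested with limma, and *Fbln1* was not. A differentially expressed gene (DEG) had to differ by at least 1 on the log2 scale, in either direction, with an adjusted p no higher than 0.05 over all 14630 genes tested. *Fbn1*, *Fbln5*, *Efemp1*, *Efemp2* and *Loxl2* were lower in hypHSCs (5 of 9, where 21.7% of all genes tested were lower). *Mfap4* and *Lox* were higher (2 of 9, where 17.8% were higher), and *Eln* and *Loxl1* were not called. Together 7 of 9 were DEGs, where 39.5% of all genes tested were. *Mfap4* had 5 hypHSC libraries above the filter and would not have passed it on its qHSC libraries, so the filter favoured its call. The median log2 fold change of the 9 genes was -1.47 and that of all genes tested was -0.20. None of the 9 genes changed direction when the libraries were scaled to equal totals, to equal upper quartiles, with TMM factors or on *Hprt*, *Pgk1* and *Actb*.

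**Figure D1:**
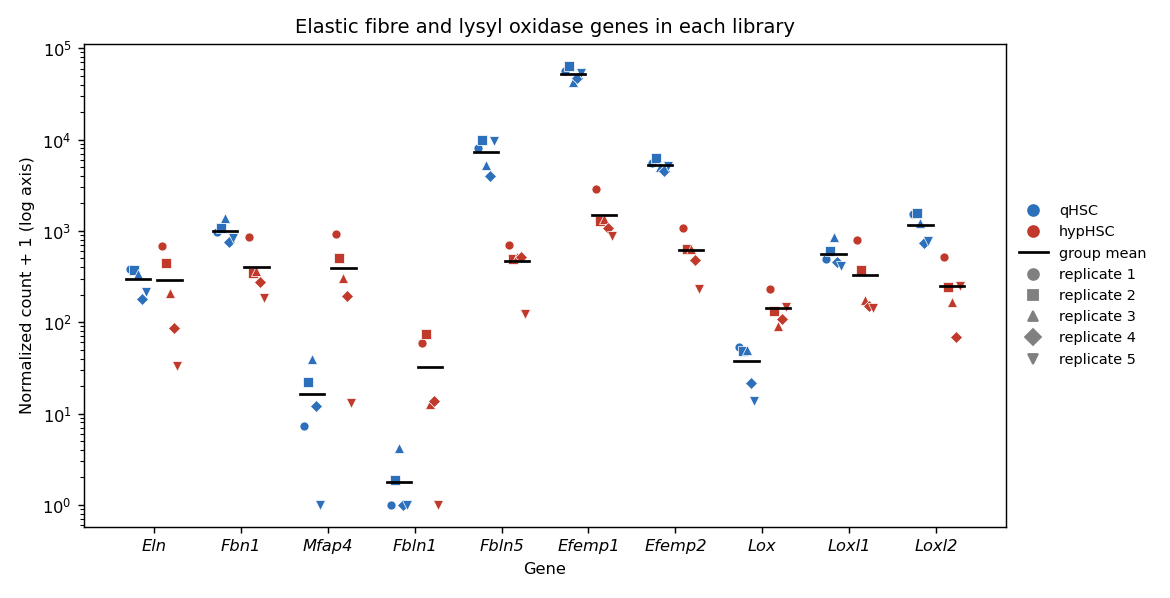
Normalized count plus 1 (log axis) of each gene in each library, with qHSCs in blue, hypHSCs in red, 1 symbol per replicate number and a bar at the group mean. The 5 hypHSC libraries of *Efemp1*, *Fbln5*, *Efemp2* and *Loxl2* lie below all qHSC libraries, those of *Lox* lie above them, and the groups overlap for *Eln*, *Fbn1*, *Mfap4*, *Fbln1* and *Loxl1*.

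Elastin itself, the core of the fibre, had nearly the same mean in both groups with a very different spread. *Eln* (chromosome 5, 134731449 to 134776177) had normalized counts of 688.6, 444.1, 207.1, 85.0 and 31.8 in hypHSC 1 to 5 and of 382.0, 372.3, 337.0, 178.8 and 215.8 in qHSC 1 to 5. Its hypHSC libraries lay on both sides of all qHSC libraries, 2 above and 2 below them. The mean was 291 ± 273 for hypHSCs and 297 ± 93.6 for qHSCs (SD, n = 5), and the highest hypHSC library held 21.7 times the lowest, against 2.14 times in qHSCs. The log2 fold change was -0.68 (SE 0.73, 95% interval -2.27 to 0.92, limma adjusted p = 0.466), an interval that holds both falls and rises. With only the 3 hypHSC libraries at 12 weeks of diet the value was -1.77 and was called (adjusted p = 0.0326, with 0.0308 to 0.989 over all alternatives).

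Of the 2 microfibril genes, *Fbn1* fell and *Mfap4* rose. *Fbn1* (chromosome 2, 125142514 to 125349913) encodes fibrillin-1, the main protein of the microfibril. It had 848.9, 344.7, 365.1, 277.0 and 184.5 normalized counts in hypHSC 1 to 5 and 962.1, 1066.8, 1374.6, 764.1 and 837.0 in qHSC 1 to 5. The 4 hypHSC libraries other than hypHSC 1 were below every qHSC library, and hypHSC 1 was above qHSC 4 and 5. The log2 fold change was -1.47 (SE 0.36, limma adjusted p = 0.00587, exact two-sided permutation p = 0.0238). Reads were counted without strand, and 20.1% of the exon bases of *Fbn1* are shared with Gm9913, a long non-coding RNA on the opposite strand, so the 2 cannot be told apart there.

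*Mfap4* (chromosome 11, 61376257 to 61379726) encodes a microfibril-associated glycoprotein that binds tropoelastin and fibrillin. Its counts were 919.0, 508.3, 306.0, 194.1 and 12.1 in hypHSC 1 to 5 and 6.34, 21.3, 38.6, 11.1 and 0 in qHSC 1 to 5. Only hypHSC 5 fell inside the qHSC range, and the other 4 hypHSC libraries were above it. The means were 388 ± 347 and 15.5 ± 15.1 (SD, n = 5), with a log2 fold change of 4.43 (SE 1.22, limma adjusted p = 0.0113, exact permutation p = 0.0238). In the fit with the 12-week hypHSC libraries alone, *Mfap4* was 3.28 higher and no longer called (adjusted p = 0.0780, with 1.32e-05 to 0.0780 over all alternatives).

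Of the 4 fibulin-type genes that bind tropoelastin or lie along the fibre, 3 were lower in hypHSCs. *Efemp1* (chromosome 11, 28803203 to 28876743) encodes fibulin-3, a protein of basement membranes and of elastic tissue in fascia and vessels. Its normalized counts were 2843.2, 1287.8, 1363.8, 1061.7 and 889.3 in hypHSC 1 to 5 and 56414.8, 64054.7, 42431.5, 46710.3 and 54199.6 in qHSC 1 to 5. The lowest qHSC library was far above the highest hypHSC library. The mean in qHSCs was 35.4 times that in hypHSCs, and the log2 fold change was -5.26 (SE 0.28, limma adjusted p = 1.96e-07).

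*Fbln5* (chromosome 12, 101712824 to 101785394) encodes fibulin-5, which is needed to assemble elastic fibres and binds both elastin and LOXL1. It had 702.0, 485.5, 511.4, 512.0 and 121.0 normalized counts in hypHSC 1 to 5 and 7989.2, 9802.7, 5289.1, 4039.7 and 9614.1 in qHSC 1 to 5. The groups did not overlap, and the qHSC mean was 15.8 times the hypHSC mean. On the log2 scale *Fbln5* fell by 4.10 (SE 0.45, limma adjusted p = 2.69e-05).

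*Efemp2* (chromosome 19, 5523974 to 5532548) encodes fibulin-4, which brings lysyl oxidase to tropoelastin. Its counts were 1079.3, 637.7, 636.2, 475.2 and 228.4 in hypHSC 1 to 5 and 5605.2, 6273.6, 5000.1, 4494.9 and 5082.4 in qHSC 1 to 5, again without overlap. The log2 fold change was -3.27 (SE 0.34, limma adjusted p = 1.81e-05), the smallest of the 3 falls. For each of the 3 genes the exact permutation p (two-sided) was 0.00794, which is as small as 5 libraries against 5 allow.

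*Fbln1* (chromosome 15, 85090150 to 85170736), encoding fibulin-1 of basement membranes and elastic fibres, was nearly silent in qHSCs. It had 57.9, 72.5, 11.6, 12.6 and 0 normalized counts in hypHSC 1 to 5 and 0, 0.85, 3.15, 0 and 0 in qHSC 1 to 5, where the largest value came from 4 reads. Reads were seen in 4 of 5 hypHSC libraries, and hypHSC 5 had none. The gene failed the filter because only 4 libraries reached 10. In the fit without a filter its log2 fold change was 3.31 (SE 1.08, limma adjusted p = 0.0296), and the exact permutation p was 0.0476.

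Among the cross-linking enzymes, the founding member and its relatives went different ways. *Lox* (chromosome 18, 52333558 to 52662941), lysyl oxidase, had 229.1, 130.4, 89.8, 108.1 and 145.2 normalized counts in hypHSC 1 to 5 and 52.5, 47.7, 48.8, 20.5 and 12.7 in qHSC 1 to 5. All hypHSC libraries were above all qHSC libraries, and the mean was 3.85 times higher in hypHSCs. The log2 fold change was 2.03 (SE 0.48, limma adjusted p = 0.00502, exact permutation p = 0.00794). Scaling on *Hprt*, *Pgk1* and *Actb*, which moved the median of all genes to -1.12, left *Lox* at 1.11 and not called (adjusted p = 0.0796, with 0.000133 to 0.0796 over all alternatives). The table gives *Lox* a span of 329 kb where the GENCODE annotation gives 14.0 kb, and whether reads from outside the annotated gene entered its count was not tested.

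*Loxl2* (chromosome 14, 69628650 to 69933283), a relative known for cross-linking collagen IV and fibrillar collagen, fell. Its counts were 518.8, 241.2, 164.7, 68.2 and 246.5 in hypHSC 1 to 5 and 1528.7, 1576.3, 1229.0, 744.4 and 782.2 in qHSC 1 to 5. The groups did not overlap, and the log2 fold change was -2.45 (SE 0.47, limma adjusted p = 0.00135, exact permutation p = 0.00794). As with *Lox*, the table's span (305 kb) exceeded the annotated one (87.1 kb), and 17.1% of the *Loxl2* exon bases are shared with *R3hcc1* on the other strand.

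*Loxl1* (chromosome 9, 58195006 to 58220495), the enzyme needed to maintain elastic fibres in the adult, was not called. It had 803.1, 372.7, 173.0, 149.0 and 143.7 normalized counts in hypHSC 1 to 5 and 490.6, 594.7, 850.3, 456.9 and 406.9 in qHSC 1 to 5. Within hypHSCs, 4 libraries were below every qHSC library and hypHSC 1 was above all but qHSC 3. The log2 fold change was -1.07 (SE 0.47, 95% interval -2.09 to -0.05, limma adjusted p = 0.0784). Without hypHSC 1 it was -1.48 and called (adjusted p = 0.00594, with 0.000782 to 0.233 over all alternatives). With all 10 libraries kept it was also called when they were scaled to equal totals (-1.43) or on *Hprt*, *Pgk1* and *Actb* (-2.01).

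In groups that do not overlap, 4 of the 9 tested genes were lower in hypHSCs (*Fbln5*, *Efemp1*, *Efemp2* and *Loxl2*), where 22% of all genes tested were, and 1 was higher (*Lox*), where 17.6% were. Separation in either direction, seen in 5 of the 9, was found in 39.5% of all genes. With hypHSC 1 and 5 both left out, 6 genes were called lower and 2 higher. With qHSC 1 and 4 left out, which had the most macrophage marker counts of the qHSCs, the counts were 5 and 2.

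**Figure D2:**
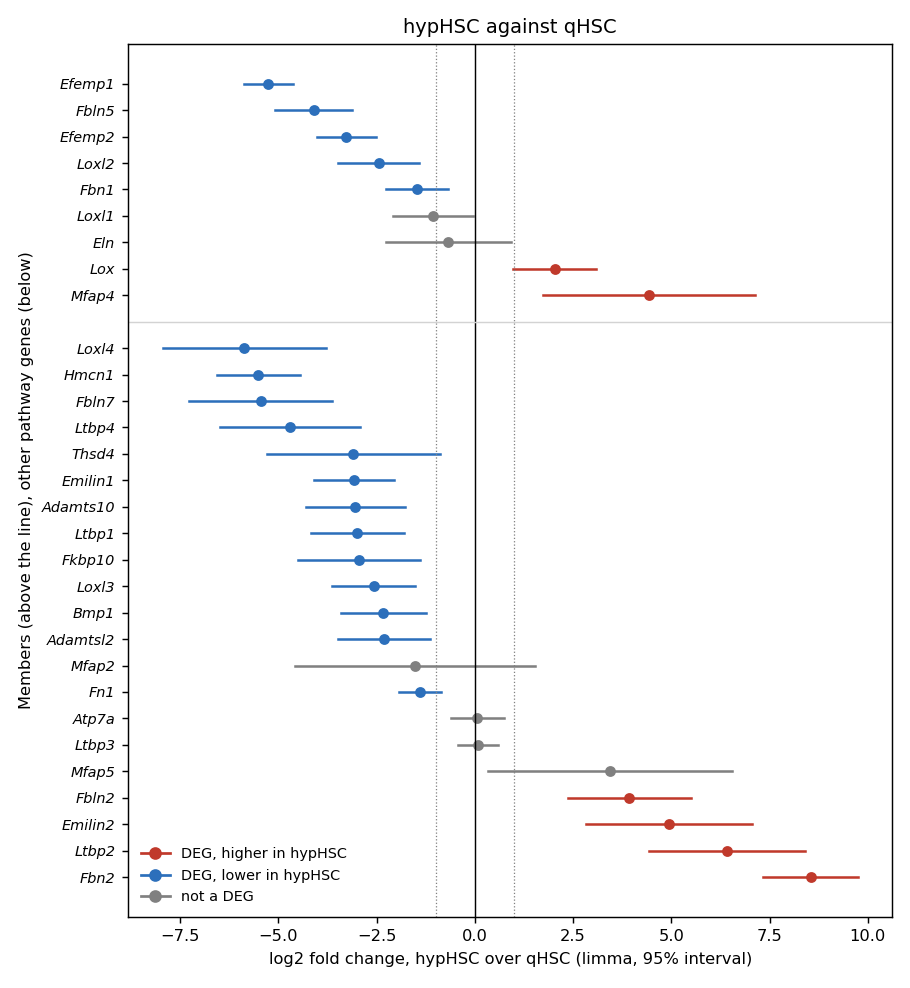
Log2 fold change of hypHSCs over qHSCs from limma with its 95% interval, for the 9 tested genes above the line and 21 other genes of the pathway below it. Blue marks DEGs lower in hypHSCs, red those higher and grey those not called, and dotted lines mark a log2 fold change of 1 either way. Intervals are widest for *Mfap2*, *Mfap5* and *Mfap4*, and *Fbn2* had no reads in qHSCs, so its point depends on the added count of 1.

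Levels were compared between genes as FPKM, reads scaled by exon length and by the reads on genes in the library. In qHSCs *Efemp1* stood apart at 355 ± 51.4 FPKM (SD, n = 5), rank 93 of 23221 genes. Next came *Fbln5* (30.5 ± 9.86) and *Efemp2* (29.7 ± 3.93), whose ranges overlapped. *Loxl2* (6.52), *Loxl1* (4.37) and *Fbn1* (2.54) followed, each overlapping the next, and *Eln* (1.11) was below all of these without overlap. At the bottom were *Lox* (0.229), *Mfap4* (0.208) and *Fbln1* (0.0056). In hypHSCs the order was *Efemp1* (7.99 ± 4.38, rank 2641), *Mfap4* (4.07), *Efemp2* (2.75), *Loxl1* (2.01), *Fbln5* (1.57), *Loxl2* (1.08), *Eln* (0.870), *Fbn1* (0.813), *Lox* (0.678) and *Fbln1* (0.165). There each gene overlapped its neighbour in range, except *Lox* and *Fbln1*, so most of that order cannot be told from the spread. *Mfap4* moved from ninth place in qHSCs to second in hypHSCs.

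The make-up of each family is described as each gene's share of the family's summed FPKM in a library, a measure that the scaling of libraries does not touch. These shares were chosen after the values had been seen and restate the levels of the same genes, so they are given without a test. The 5 lysyl oxidase genes summed to 6.06 ± 3.49 FPKM in hypHSCs and 27.0 ± 7.14 in qHSCs. *Lox* made up 10.4%, 8.55%, 7.76%, 19.2% and 22.1% of that sum in hypHSC 1 to 5 and 0.379% to 1.05% in qHSCs (means 13.6% ± 6.59 and 0.798% ± 0.281, SD, n = 5). *Loxl1* held 30.9% ± 9.73 in hypHSCs and 16.3% ± 4.14 in qHSCs, and the ranges overlapped. *Loxl4* held 0.811% ± 0.765 and 9.40% ± 2.25, without overlap. *Loxl3* held 36.2% ± 17.7 and 49.8% ± 3.43, and *Loxl2* held 18.4% ± 9.26 and 23.7% ± 2.72, and for both genes the ranges overlapped. *Loxl3* shares 25.3% of its exon bases with *Htra2* on the other strand.

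**Figure D3:**
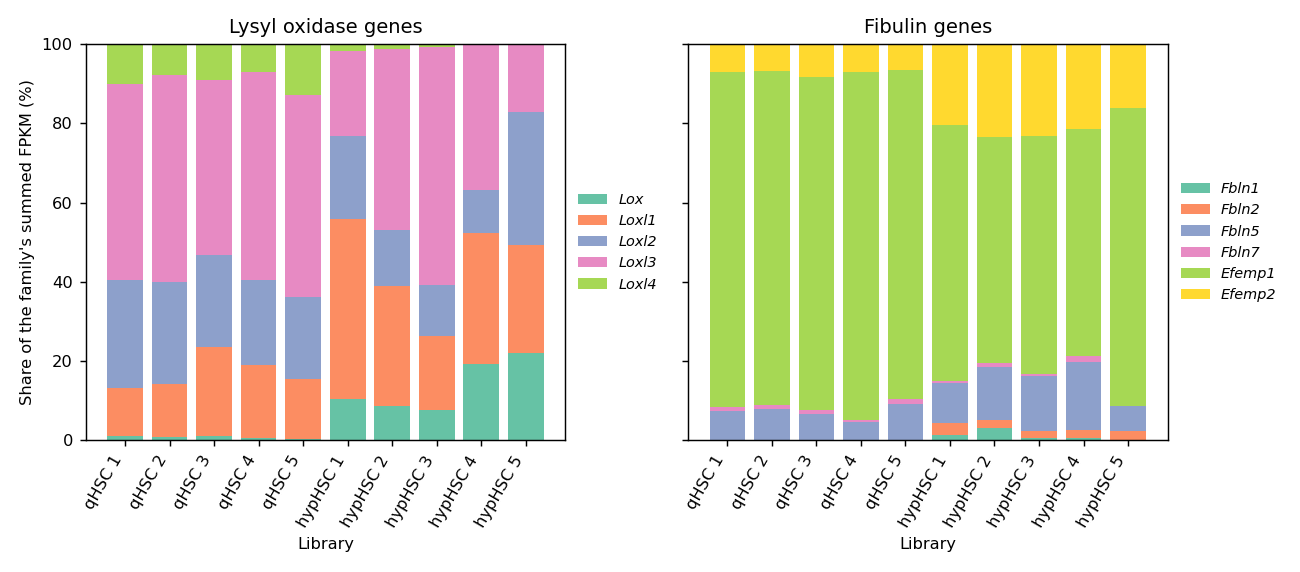
Share in percent of the summed FPKM of 5 lysyl oxidase genes (left) and 6 fibulin genes (right) in each library, qHSCs first. *Lox* takes 7.76% to 22.1% in hypHSCs and at most 1.05% in qHSCs, and *Efemp1* takes 57.1% to 75.2% of the fibulin sum in hypHSCs, below its 83.0% to 87.8% in qHSCs.

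The 6 fibulin genes summed to 12.9 ± 6.83 FPKM in hypHSCs and 419 ± 63.4 in qHSCs. *Efemp1* held 62.8% ± 7.55 of the sum in hypHSCs and 84.7% ± 1.80 in qHSCs, *Efemp2* held 20.9% ± 3.01 and 7.12% ± 0.666, and *Fbln2* held 2.26% ± 0.556 and 0.0059% ± 0.0054 (SD, n = 5). None of these 3 overlapped between groups. *Fbln5* held 12.1% and 7.16%, *Fbln1* 1.13% and 0.0015%, and *Fbln7* 0.746% and 0.966%, each with overlapping ranges. Of the fibrillin sum of *Fbn1* and *Fbn2*, *Fbn2* held 40.0% ± 9.63 in hypHSCs, from 24.0% to 50.1%, and had no reads in qHSCs.

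Other genes of the pathway also moved in both directions. Of 21 genes, all tested, 13 were DEGs lower in hypHSCs (21.7% of all genes tested were), 4 were DEGs higher (17.8% of all genes) and 4 were not called, with a median log2 fold change of -2.33. The groups did not overlap, with hypHSCs lower, for *Ltbp1*, *Adamts10*, *Hmcn1*, *Emilin1*, *Loxl3*, *Bmp1*, *Fkbp10* and *Fn1*. Of all genes tested, 22% were separated in this direction. The 4 higher ones, *Fbn2*, *Ltbp2*, *Fbln2* and *Emilin2*, passed the filter through their hypHSC libraries, so their separation is not counted. In the same way *Ltbp4*, *Thsd4*, *Fbln7* and *Loxl4* passed it through their qHSC libraries. Of these, *Thsd4* did not separate, and the separation of the others is not counted either. The 13 and the 4 DEGs hold calls that the filter favoured, so they cannot be weighed against the shares of all genes. The 21 genes were chosen with earlier results known, and the counts are a description.

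Of the microfibril genes, *Fbn2* (fibrillin-2, the fibrillin of the embryo) had no reads in any qHSC library and 948.6, 426.5, 416.6, 141.6 and 299.5 normalized counts in hypHSC 1 to 5. Its mean was at least 179-fold higher than in qHSCs, taken at the floor of 3 reads averaged over those libraries. *Ltbp2*, a latent TGF-β-binding protein that binds fibulin-5 and not TGF-β, had 1184.5, 799.2, 652.8, 174.2 and 173.9 in hypHSC 1 to 5 and 0 to 29.1 in qHSCs (log2 fold change 6.42). Among genes of this family whose proteins hold latent TGF-β on the microfibril, *Ltbp1* (-2.998) and *Ltbp4* (-4.70) fell. The protein of *Ltbp4* is also a partner of fibulin-4 and fibulin-5 in fibre assembly. *Ltbp3* was at 0.09 and not called. The microfibril-organising genes *Adamts10* (-3.04), *Adamtsl2* (-2.31) and *Thsd4* (-3.10) also fell, and hypHSC 1 lay within the qHSC range for the last 2 of these. *Mfap2*, with a range of 3.02 to 1622.4 in hypHSCs and 262.7 to 1539.5 in qHSCs, and *Mfap5* (6.21 to 415.9 and 0 to 33.1) were not called. DESeq2 and edgeR on the recovered reads called *Mfap5* higher and did not call *Thsd4*.

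Among other fibulins and emilins, *Fbln7* (-5.45), *Hmcn1* (hemicentin-1, -5.51) and *Emilin1* (-3.08), a glycoprotein at the border of elastin and microfibril, fell. *Fbln2* (3.93) and *Emilin2* (4.94) rose. *Emilin2* had 218.7 to 334.2 normalized counts in hypHSCs and 0 to 76.2 in qHSCs, and its highest qHSC library was qHSC 4, which also had the highest macrophage sum of the qHSCs. The lysyl oxidase relatives *Loxl3* (-2.58) and *Loxl4* (-5.87) fell. So did *Bmp1* (-2.33), the protease that activates pro-lysyl oxidase, *Fkbp10* (-2.95), a prolyl isomerase that acts on procollagen and tropoelastin in the endoplasmic reticulum, and *Fn1* (-1.39), fibronectin, on which fibrillin is laid down. *Atp7a*, which loads copper into lysyl oxidases, was at 0.06 and not called (SE 0.31, 95% interval -0.61 to 0.74). *Fkbp10* shares 19.5% of its exon bases with *Nt5c3b* on the other strand.

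Several genes whose products degrade elastin or form the elastin receptor were higher in hypHSCs. Of 11 genes, 9 were tested (*Mmp9* and *Elane* were not), 5 were DEGs higher in hypHSCs (17.8% of all genes tested were) and 4 were not called. With edgeR 7 were higher and with DESeq2 5. *Mmp12*, macrophage elastase, had 314232 to 564856 normalized counts in hypHSCs and 29.0 to 238.6 in qHSCs (log2 fold change 11.74, SE 0.47, limma adjusted p = 3.89e-08). Among qHSCs *Mmp12* was highest in qHSC 3, with 170.3 in qHSC 4 and 147.5 in qHSC 1. *Ctss*, encoding cathepsin S, an elastolytic protease of antigen-presenting cells, had 272505 to 391358 and 883 to 15479 (log2 fold change 6.71). Among qHSCs *Ctss* was highest in qHSC 4 and next in qHSC 1. Which cells gave the *Mmp12* and *Ctss* reads was not tested. *Ctsk*, cathepsin K, rose by 2.63 on the log2 scale, and its qHSC libraries stayed within 531 to 703. *Mmp7*, matrilysin, had no reads in qHSCs and 132 to 1335 normalized counts in hypHSCs, at least 174-fold over the floor, and was highest in hypHSC 1. *Mmp7* passed the filter through its hypHSC libraries, so the filter favoured its call, which is among the 5. *Ctsa*, the protective protein of the elastin receptor complex, was higher by 2.07, and hypHSC 5 lay within the qHSC range. *Glb1* and *Neu1*, the other subunits, were at 0.07 and 0.85, and *Mmp2* was at -0.72, and these 3 were not called. *Ctsl* was at 0.99, just under the fold threshold (limma adjusted p = 0.00156). Reads were counted without strand, and *Ctsa* shares 24.3% of its exon bases with *Pltp* on the other strand. *Ctsl* shares 26.1% with Gm47123 and *Mmp2* shares 24.3% with Gm45472, both long non-coding RNAs on the other strand.

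Among hypHSC libraries, hypHSC 1 was high and hypHSC 5 low in most of these genes. hypHSC 1 was the highest hypHSC library in 9 of the 9 tested genes, in 61.9% of the 21 other pathway genes and in 23% of all genes tested. hypHSC 5 was the lowest in 7 of 9 (77.8%) and in 38.1% of all genes. In qHSCs, qHSC 4 or 5 was the lowest in 8 of 9 (88.9%) and in 40.2% of all genes. The SD of log2 values within hypHSCs had a median of 0.99 over the 9 genes and 0.73 over all genes, and within qHSCs 0.50 and 0.34. It was larger in hypHSCs for 8 of 9 genes, *Lox* being the exception, and for 80.7% of all genes. The summed counts of several marker lists were also highest in hypHSC 1. Myofibroblast markers summed to 40553 there and to 19108 to 26542 in the other 4, portal fibroblast markers to 19205 and 8458 to 14807, and cholangiocyte markers to 5918 and 292 to 1581. Mitochondrial rows were at 12.8% of its reads. The part of these in the spread was not tested.

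**Figure D4:**
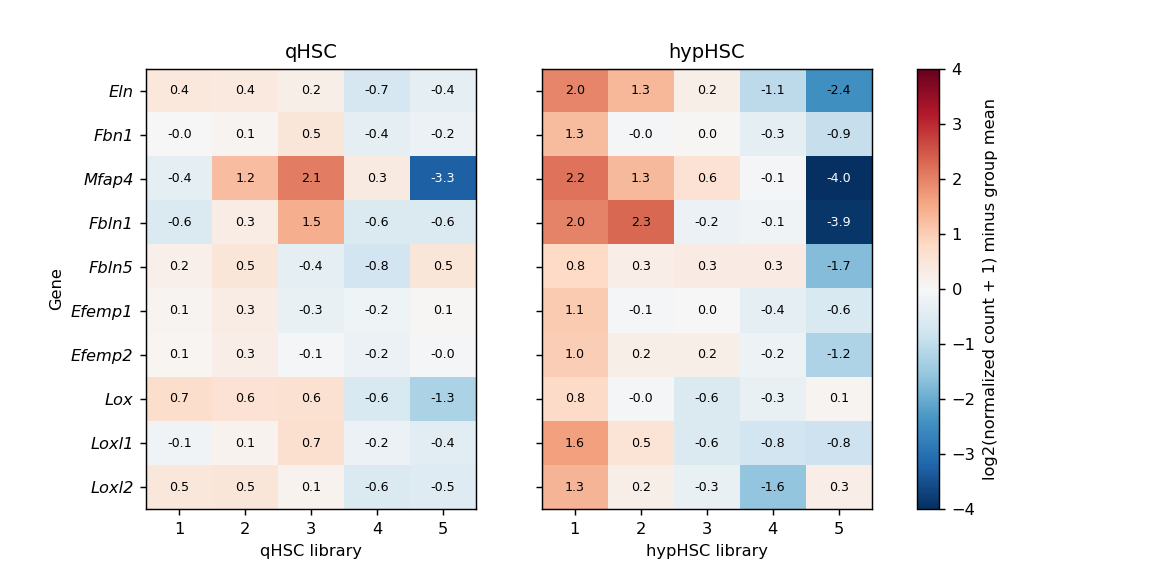
Difference of each library from its group mean, on the log2(normalized count + 1) scale, for the 10 genes in qHSCs (left) and hypHSCs (right). Red is above and blue below the group mean, and the hypHSC 1 column is above it for all genes while the hypHSC 5 column is lowest for *Eln*, *Mfap4*, *Fbln1* and *Fbln5* among others.

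Marker lists of cells that could carry elastic fibre genes moved in both directions. Of all genes tested, 21.7% were lower and 17.8% higher by limma. The lists are short, so their counts beside these shares are a description. Portal fibroblast markers (6 of 10 tested) were higher for *Gli1*, *Cd34*, *Dpt* and *Dpep1* and lower for *Gas1*, with sums of 8458 to 19205 (hypHSCs) and 1376 to 7642 (qHSCs). Vascular smooth muscle markers (5 of 7 tested) were lower for 3 and not called for 2, with sums of 186 to 544 and 2279 to 4817. Myofibroblast markers (10 tested) were lower for 7 and higher for *Timp1*, a call that DESeq2 and edgeR did not make, with sums of 19108 to 40553 and 68648 to 86132. Mesothelial markers (3 of 6 tested) were higher for 2, with sums of 335 to 814 and 127 to 232. Cholangiocyte markers (3 of 6 tested) were all called higher, with sums of 292 to 5918 and 0 to 19.0. *Cldn4* and *Cftr* had no reads in any qHSC library. The 3 tested cholangiocyte genes, and *Gli1* of the portal list, passed the filter through their hypHSC libraries. *Myh11* of the smooth muscle list passed it through its qHSC libraries. The filter favoured such calls, so they cannot be weighed against the shares of all genes. Sinusoidal endothelial markers (7 of 8 tested) were higher for 1 and lower for 2, with sums of 413 to 810 and 1000.3 to 2390, with only 1 called by edgeR. Of the 8 hepatocyte markers, 0 were called by limma, DESeq2 or edgeR and 0 had an unadjusted limma p under 0.05, with sums of 8971 to 94949 and 18801 to 66979. The part of these cell types in the changes of the 10 genes was not tested.

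For each tested gene, the 2 genes of most like pattern were taken from the 10792 tested genes whose mean normalized count reached 100, by the root mean square difference of centred log2 values over the 10 libraries. *Efemp2* had the closest, *C1s1* (0.19) and *Mylk* (0.19). *Efemp1* was nearest to *Abi3bp* and *Septin4* (both 0.25), *Fbn1* to *Copz2* and *Ppic* (both 0.25), *Fbln5* to *Mxra8* (0.31) and *Ncald* (0.36), and *Loxl2* to *Lamb2* and *Abca8a* (both 0.33). *Loxl1* was nearest to *4933431E20Rik* (0.34) and *Ifi27l2a* (0.36), *Lox* to *Emp1* (0.38), and *Eln* to *Mapk3* (0.38) and *Kat2a* (0.41). *Mfap4* had no close match, its nearest being *Fmod* (1.30) and *Arhgap45* (1.34). None of these neighbours was itself one of the 10 genes or of the 21 other pathway genes.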

How the data were processed

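The authors primed cDNA on poly(A), amplified it and sequenced it paired-end and unstranded. Per the submitters' processing notes and the study's methods, reads were mapped with STAR to mm39 (GRCm39) and counted with featureCounts (Subread 1.5.0) on FAST DB gene models. The deposited unit is a signal, the count per gene divided by 1 DESeq2 size factor per library. Multiplied back, 100% of the values were whole reads (tolerance 0.05 read).

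Of 62322 rows, the 25233 with a symbol were used. Values were taken as log2(normalized count + 1), a scale that understates the change of low genes, and compared with limma 3.58.1 (intensity trend, R 4.3.3) for genes that reached 10 normalized counts in 5 or more libraries, with Benjamini-Hochberg adjustment over 14630 genes. Single genes also had exact two-sided permutation tests. FPKM was recomputed from recovered reads and GENCODE exon lengths. The members and gene lists were chosen with earlier results of these data known. All members, all called genes of the pathway lists and the 2 nearest genes per member were named, except that 1 of the latter is not reported here. Genes beyond that rule, mainly those of the lists that were not called and the genes of the marker lists, were named after their values were seen. In all, 26 alternatives were run, among them DESeq2 1.42.0 and edgeR 4.0.16 (quasi-likelihood) on recovered reads, which called 5822 and 5336 genes where limma called 5779. The steps were tested on simulated data, where 83 of 100 genes changed by 1.5 on the log2 scale and 100 of 100 changed by 3 were recovered. The simulated counts had the same dispersion in both groups, and only genes above a set mean were changed. In the real data the 9 tested genes had a median SD of 0.99 in hypHSCs and 0.50 in qHSCs. The simulated recovery is therefore not that of these genes.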

Additional observations from a re-analysis of the deposited data

Results flagged for a closer look

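In 62 groups of 5 libraries, those of the 10 genes and of the other pathway genes, the highest or lowest library was set against Dixon's critical value of 0.71 for its gap over the group's range, on the log2 scale (*Fbn2* in qHSCs had no range). Chance alone flags about 1 in 20 such groups, and 4 were past it. *Fbln5* had 121 normalized counts in hypHSC 5, where the other hypHSC libraries had 486 to 702. *Ltbp3* had 327 in hypHSC 5 against 428 to 465. *Fbln2* had 217 in hypHSC 1 against 43.9 to 68.3. *Loxl4* had 264 in qHSC 4, where the other qHSC libraries had 524 to 612.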

How the results depend on the processing

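Of 233 refitted fold changes of the 9 tested genes, 224 kept their direction and side of the thresholds, 7 became called, 2 lost their call and none reversed. The number of genes called higher was 1 in place of 2 in 3 alternatives: with genes kept only when their mean normalized count reached 100 (*Mfap4*, since *Lox* was filtered out), with scaling on *Hprt*, *Pgk1* and *Actb* (*Mfap4*) and with the 12-week hypHSC libraries only (*Lox*). Without a filter it was 3, *Fbln1* being added. The number called lower ran from 5 to 7. *Loxl1* was called at -1.43 with equal totals, -2.01 with the 3 reference genes, -1.80 at 12 weeks, -1.48 without hypHSC 1 and -1.34 without hypHSC 1 and 5, the last chosen after seeing the data. *Eln* was called at -1.61 with the reference genes and -1.77 at 12 weeks. *Lox* was lost at 1.11 with the reference genes, and *Mfap4* at 3.28 at 12 weeks. The median of all genes was -0.54 with equal totals, -0.08 with equal upper quartiles and -1.12 with the reference genes. Apart from these constructions, the causes were not tested. With 1 library left out, 5 to 6 genes were lower, 2 were higher, *Eln* ran from -1.17 to -0.07, *Loxl1* from -1.48 to -0.86 and *Mfap4* from 3.62 to 5.42. Of the other pathway genes, 12 to 13 were lower and 3 to 5 higher in all alternatives. Including rows without a symbol gave 9291 DEGs of 24320 rows, against 5779 of 14630 genes. The labels give both groups replicate numbers. After the group means were subtracted, same-numbered libraries correlated at 0.0082 to 0.129. Libraries with different numbers were not compared, so these values cannot decide whether the numbers pair libraries. With the replicate number as a block, 5786 genes were DEGs, and 5 of the 9 genes were lower and 2 higher, as without it.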
